A study of Rattus norvegicus with 6 samples.

Results

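Cyclooxygenases make prostaglandin H2 from arachidonic acid, the step from which all prostaglandins and thromboxane derive. Rats carry the enzyme in a pair of forms encoded by separate genes. Ptgs1 (cyclooxygenase-1) is expressed at a steady level in many cell types and is the form used by platelets. Ptgs2 (cyclooxygenase-2) is an inducible gene that inflammatory cytokines, growth factors and mechanical load switch on in fibroblasts and macrophages, and prostaglandin E2 made through it is a mediator of pain and swelling in injured tendon. Celecoxib blocks the enzyme encoded by Ptgs2 and spares the one encoded by Ptgs1. The measurements here are of mRNA, not of enzyme activity or prostaglandins.

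The pair was chosen by gene ID: ENSRNOG00000002525 for Ptgs2 and ENSRNOG00000007415 for Ptgs1, 2 of the 22250 IDs in the deposited table. Both are in the table and both passed the filter on low counts that left 15122 IDs to be tested. The RNA came from achilles tendons of Sprague–Dawley rats, taken on day 14 after the tendon had been cut through at its midpoint and sutured. In the injury model group, 3 rats had this operation and no drug. In the celecoxib + lactoferrin group, 3 rats had the same operation and a daily injection at the injured site, holding celecoxib and lactoferrin (a milk protein that binds iron). The labels give day 14 as an age, whereas the methods give it as the time after surgery. Libraries of celecoxib alone were not analysed here, and the paper's methods name no uninjured tendon among the samples sequenced. What belongs to celecoxib, to lactoferrin or to the injections therefore cannot be told apart. Whether the injury model rats received injections without drug is not given in the sources used here.

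Totals lay between 34546567 and 47181784 counts per library. The table lists IDs only, and 0 of them matched the reference table of rat genes, so the symbols of the pair come from the list that defined it. For the same reason the prostaglandin synthases and receptors, the lipoxygenases, the inducers of Ptgs2 and the markers of tendon, muscle, macrophages and platelets were not analysed here, and the labelled tissue was not checked against its markers. In whole tendon, fewer cells that express a gene and less of its mRNA per cell cannot be told apart.

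The promoters of the pair are shown as background, because the genes differ in how they are regulated. Whether these letters relate to the levels in these libraries was not tested. The bases are the 250 before the annotated start, from RefSeq on build GRCr8, plus strand, at chr13:64713813-64714062 for Ptgs2 and chr3:39981169-39981418 for Ptgs1. Capitals mark every match on either strand to the motifs searched.
Ptgs2: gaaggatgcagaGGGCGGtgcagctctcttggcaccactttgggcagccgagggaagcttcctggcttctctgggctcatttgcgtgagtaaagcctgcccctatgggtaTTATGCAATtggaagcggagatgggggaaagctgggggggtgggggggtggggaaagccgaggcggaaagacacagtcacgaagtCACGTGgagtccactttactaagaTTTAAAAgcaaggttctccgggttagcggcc
Ptgs1: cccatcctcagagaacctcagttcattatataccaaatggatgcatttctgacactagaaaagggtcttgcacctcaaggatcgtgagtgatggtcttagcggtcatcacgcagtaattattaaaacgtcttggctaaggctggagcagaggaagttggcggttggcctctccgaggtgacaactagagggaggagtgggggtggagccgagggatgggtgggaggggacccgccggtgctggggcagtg

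In the Ptgs2 window, the letters TTTAAAA, which are close to a TATA box and were added to the search after the sequence had been seen, lay 31 to 25 bases before the start. They were found in 8.24% of the 33469 rat promoter windows of the same length. An E-box (CACGTG) lay 55 to 50 bases before the start, and 5.59% of windows held one. A C/EBP motif (TTNNGCAAT), the kind bound by factors of the inflammatory response, lay 140 to 132 bases before the start and was found in 2.04% of windows. A GC box (GGGCGG) lay 238 to 233 bases before it and was found in 30.5%. In the Ptgs1 window none of these motifs was found. The TATA box (TATAAA, 12.9% of windows), the cAMP response element (TGACGTCA, 1.59%), AP-1 (TGANTCA, 6.34%) and the NF-kB consensus (3.54%) were found in neither window. No motifs overlapped, and these matches are letters in a window, not measured binding. In RefSeq no annotated gene overlaps either gene. The gene annotated before Ptgs2 along the chromosome is the non-coding gene Ptgs2os, with 225 bases between their annotated spans. The strand of Ptgs2os was not looked up. The window of 250 bases is longer than that gap, and the GC box at 238 to 233 bases lies farther from the start than 225 bases. The strand setting of the counting is not given in the sources used here.

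Ptgs2 mRNA was lower in every celecoxib + lactoferrin rat than in every injury model rat. The counts were 3947, 1890 and 2608 in injury model replicates 1, 2 and 3, and 202, 432 and 322 in celecoxib + lactoferrin replicates 1, 2 and 3. As CPM, which are counts scaled to the library total and corrected by TMM for composition, the level was 92.3, 39.3 and 77.3 CPM in the injury model rats. It was 5.90, 12.5 and 6.39 CPM in the treated rats. The groups did not overlap: the lowest injury model rat, replicate 2, lay 3.14-fold above the highest treated rat, also a replicate 2. Groups that do not overlap in either direction were seen in 7.8% of the genes tested, and with the treated group lower in 3.69%.

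**Figure D1:**
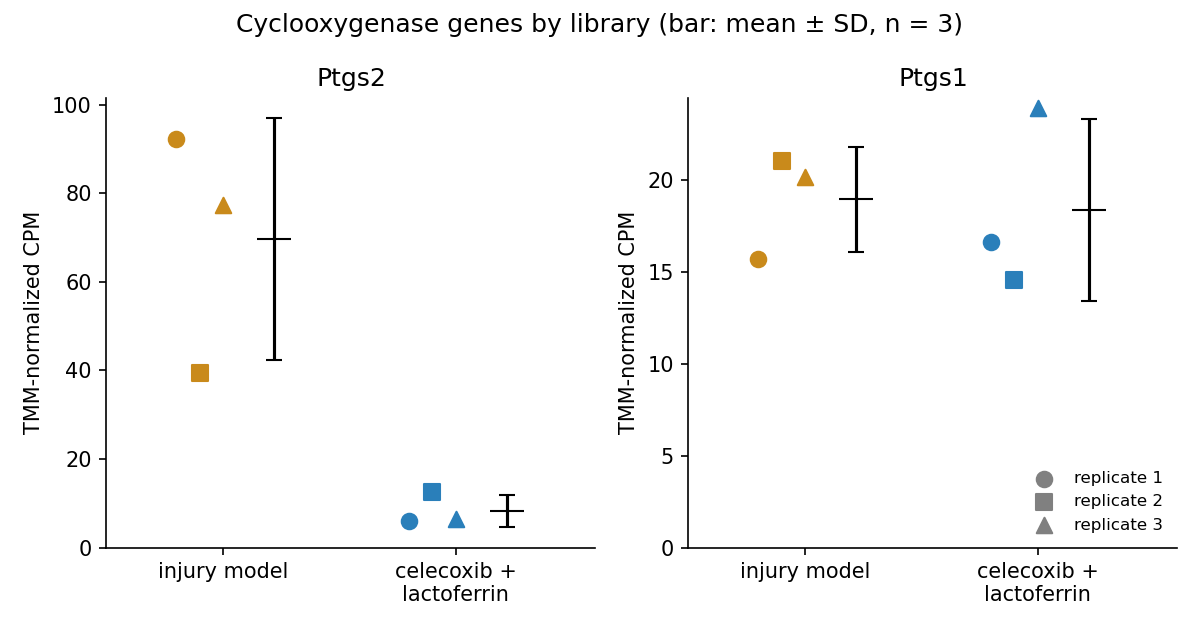
Level of Ptgs2 (left) and Ptgs1 (right) in TMM-normalized CPM on linear axes from 0, 1 point per rat and the mean ± SD beside each group (n = 3). The 3 injury model rats lie between 39.3 and 92.3 CPM for Ptgs2 and the 3 treated rats between 5.90 and 12.5 CPM, while for Ptgs1 the groups overlap.

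For Ptgs2 the injury model rats averaged 69.6 ± 27.3 CPM (SD, n = 3), and the treated rats averaged 8.27 ± 3.69 CPM (SD, n = 3). The fitted difference was -3.07 on the log2 scale (standard error 0.43, 95% interval -4.09 to -2.06), or 8.43-fold lower in the treated rats with an interval from 4.18-fold to 17.0-fold. In edgeR's quasi-likelihood test the unadjusted p-value was 0.000162, under the threshold of 0.05 that the study's methods use. That threshold was met by 2.61% of all genes tested, and by 1.2% with the treated group lower. After Benjamini-Hochberg adjustment over the 15122 genes the p-value was 0.306 in edgeR, so the difference did not pass at an adjusted 0.05, which 0.00661% of genes did (1 gene). With DESeq2, the tool of the study's methods, the log2 fold change was -3.08 with an adjusted p-value of 4.9e-12, and 0.164% of the 15890 genes to which DESeq2 gave an adjusted p-value passed at that threshold (26 genes), 0.145% with the treated group lower.

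Among all genes tested, 7 had a smaller p-value than Ptgs2 in edgeR, all of them lower in the treated rats, which puts Ptgs2 at position 8 of 15122. A lower fitted log2 fold change was found for 14 genes. Of the 2285 genes that were at least as abundant as Ptgs2 in the injury model group (Ptgs2 included), 3 had a lower log2 fold change. That cut used the injury model level alone, where Ptgs2 was high, so the count is a description and not a test. By mean CPM in the treated rats, Ptgs2 was at position 9575. For comparison, 5% of all genes had a log2 fold change below -0.63 and 5% had one above 0.67. In mean CPM, 84.9% of the genes tested lay below Ptgs2 among injury model rats and 36.7% did so among treated rats. CPM is not corrected for gene length, so this position depends on length as well as on mRNA.

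**Figure D2:**
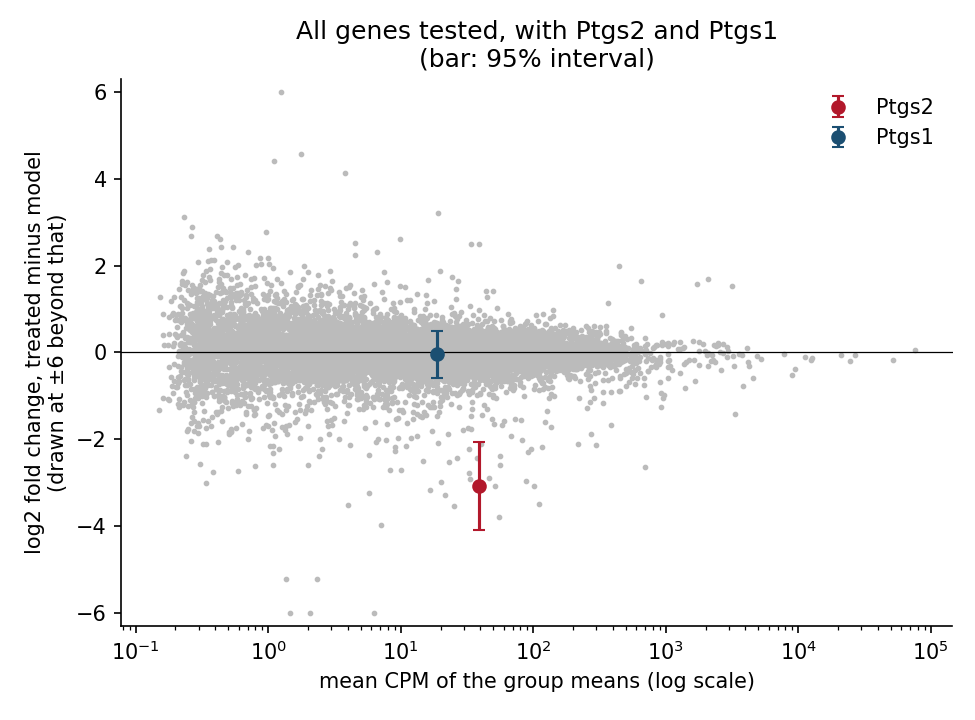
Log2 fold change (treated minus injury model) of each of the 15122 genes tested against its mean CPM on a log axis, with genes beyond ±6 drawn at that limit and 95% intervals for the pair. Ptgs2 lies at -3.07, below all but 14 genes, and Ptgs1 at -0.04, inside the main cloud.

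The Ptgs2 level varied between rats of the same group. The injury model rats differed among themselves by up to 2.35-fold and the treated rats by up to 2.12-fold. Their coefficients of variation were 39.2% and 44.6%. The smallest count, 202 in celecoxib + lactoferrin replicate 1, corresponds to 5.90 CPM with an exact Poisson 95% interval from 5.11 to 6.77. The biological coefficient of variation that edgeR assigned to Ptgs2 was 36.5%, against 39.3% for all genes in common. The Poisson interval covers counting error only.

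No difference in Ptgs1 mRNA between the groups was found, and their values overlapped. The counts were 671, 1010 and 680 in injury model replicates 1, 2 and 3, and 569, 502 and 1206 in celecoxib + lactoferrin replicates 1, 2 and 3. This corresponds to 15.7, 21.0 and 20.2 CPM in the injury model rats and to 16.6, 14.5 and 23.9 CPM in the treated rats. The highest and the lowest of the 6 libraries were both from treated rats, so that the treated range enclosed the injury model range.

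For Ptgs1 the injury model rats averaged 19.0 ± 2.86 CPM (SD, n = 3), and the treated rats averaged 18.4 ± 4.93 CPM (SD, n = 3). The fitted difference was -0.04 on the log2 scale, with a standard error of 0.23 and an adjusted p-value of 0.998 in edgeR. Its 95% interval ran from -0.59 to 0.50, or from 0.666-fold to 1.41-fold of the injury model level. Differences within that range are thus not excluded by these 3 rats against 3. The sign of so small a value is not settled: it was -0.05 with DESeq2's size factors and 0.01 with library size only. In absolute log2 fold change, 12.7% of the genes tested lay closer to 0 than Ptgs1.

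The ratio of Ptgs2 to Ptgs1 counts within a library needs no scaling between libraries, and gene length cancels when libraries are compared. It was 5.88, 1.87 and 3.84 in injury model replicates 1, 2 and 3. In celecoxib + lactoferrin replicates 1, 2 and 3 it was 0.355, 0.861 and 0.267. Every injury model rat had more Ptgs2 than Ptgs1 counts and every treated rat had fewer, with 2.17-fold between the closest libraries of the groups. The ratio says nothing about which mRNA was the more abundant in molecules, because the counts are not corrected for length.

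On the log2 scale the ratio averaged 1.80 ± 0.83 (SD, n = 3) over the injury model rats and -1.21 ± 0.88 (SD, n = 3) over the treated rats. The difference was -3.01, or 8.03-fold. A two-sided exact permutation test over the rats gave p = 0.1, the smallest value that 3 against 3 allow. This test of the ratio is also the test of whether Ptgs2 and Ptgs1 differed in their response. The Ptgs2 difference minus the Ptgs1 difference from the edgeR fit was -3.03 on the log2 scale.

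As a share of the counts of both genes, Ptgs2 took 85.5%, 65.2% and 79.3% in injury model replicates 1, 2 and 3. In celecoxib + lactoferrin replicates 1, 2 and 3 it took 26.2%, 46.3% and 21.1%. The Wilson 95% interval closest to the other group was 63.4% to 66.9% for injury model replicate 2 and 43.1% to 49.5% for celecoxib + lactoferrin replicate 2. The share thus lay on opposite sides of an even split in the groups. The counts behind it ranged from 2900 to 4618 per injury model library and from 771 to 1528 per treated library.

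**Figure D3:**
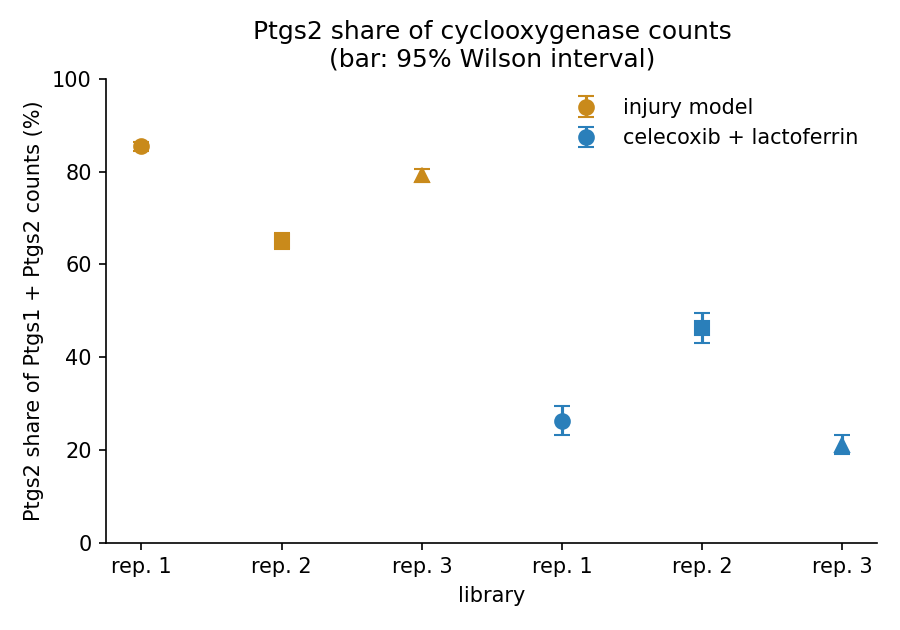
Share of Ptgs2 in the summed Ptgs1 and Ptgs2 counts (percent, axis from 0 to 100) in each library, with 95% Wilson intervals for counting error. The injury model rats lie between 65.2% and 85.5% and the treated rats between 21.1% and 46.3%.

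The pair of libraries most alike over all genes came from different groups. Celecoxib + lactoferrin replicate 3 and injury model replicate 2 had the highest Pearson's r of all pairs of libraries, 0.963, across the log2 CPM of all genes tested, which are not independent replicates. Between the same libraries Ptgs2 was 6.16-fold higher in the injury model rat. Injury model replicate 2 was the rat of its group nearest to the treated rats in Ptgs2, whereas celecoxib + lactoferrin replicate 3 lay near the lower end of its own group. Celecoxib + lactoferrin replicate 1, whose r with the other libraries lay between 0.887 and 0.926, had the lowest Ptgs2 level of all.

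By their totals, 3 libraries were deeper and 3 were shallower, and each class holds rats of both groups. The labels do not call these batches. Among the deeper libraries Ptgs2 averaged 65.8 CPM in 2 injury model rats and was 6.39 CPM in 1 treated rat, 10.3-fold lower. Among the shallower ones it was 77.3 CPM in 1 injury model rat and averaged 9.21 CPM in 2 treated rats, 8.39-fold lower. Ptgs1 had the higher mean in the treated rat among the deeper libraries (23.9 against 18.4 CPM) and the lower mean in the treated rats among the shallower ones (15.6 against 20.2 CPM). No test was run within a class, where 1 group is a single rat. Over all 6 libraries, edgeR with a term for this split gave Ptgs2 a log2 fold change of -3.22 (unadjusted p = 0.000346, adjusted p = 0.582).

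The log2 fold change of Ptgs2 lay between -3.50 and -2.82 over 14 alternative fits, which is 7.06-fold to 11.3-fold lower in the treated rats. The unadjusted p-value stayed under 0.05 in all 14, at most 0.00563 with a replicate block, from edgeR, DESeq2 or limma. The adjusted p-value was under 0.05 in 1 of them, the DESeq2 fit. With 1 rat left out, the adjusted p-value in edgeR was 0.875, 0.0534 and 0.99989 without injury model replicates 1, 2 and 3. It was 0.999, 0.305 and 0.748 without celecoxib + lactoferrin replicates 1, 2 and 3.

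**Figure D4:**
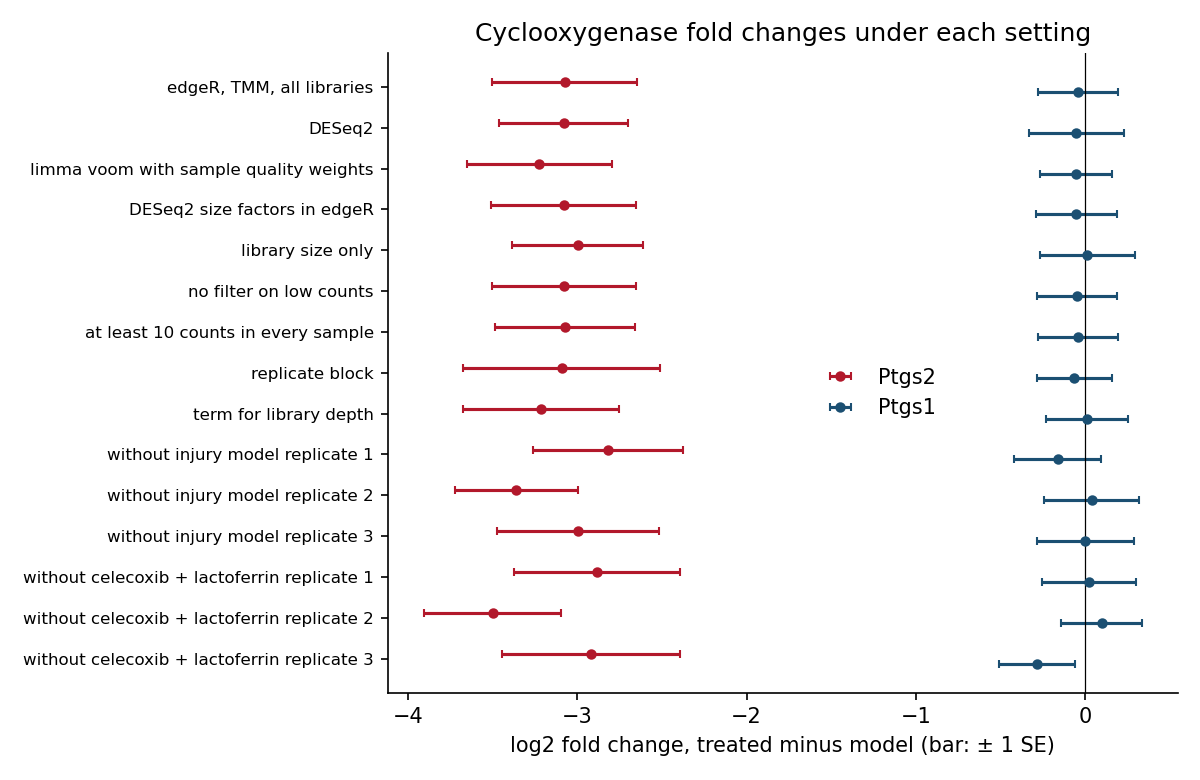
Log2 fold change (treated minus injury model) of Ptgs2 and Ptgs1 with ± 1 standard error under the edgeR fit and each of the 14 alternatives, 1 row each. Ptgs2 stays between -3.50 and -2.82, and Ptgs1 lies between -0.28 and 0.09, on both sides of 0.

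The genes most like Ptgs2 over the 6 libraries were found by Pearson's r of log2 CPM, as a description without a test, since the difference between the groups makes up much of each r. For 20 of the 15121 other genes r was above 0.95. The highest values were 0.988 for ENSRNOG00000043465 and 0.986 for ENSRNOG00000026293. ENSRNOG00000043465 had 9.07, 5.26 and 6.10 CPM in the injury model rats and 1.11, 2.06 and 1.47 CPM in the treated rats, with the same order of rats within each group as for Ptgs2. ENSRNOG00000026293 had 178, 143 and 171 CPM against 100.4, 106 and 104 CPM, again in the order of Ptgs2 within each group. Its difference was narrower, -0.66 on the log2 scale with adjusted p = 0.998 in edgeR. Picking IDs by their r with Ptgs2 favours such a shared order. The most opposite patterns were those of ENSRNOG00000009014 and ENSRNOG00000057619, with r of -0.988 and -0.983. For Ptgs1, 51 genes had an r above 0.95, and the IDs highest in this order had no symbol either. ENSRNOG00000015516, the first of them with r of 0.996, had a log2 fold change of -0.04, the same as Ptgs1 to that precision.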

How the data were processed

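Tendon mRNA was measured in 3 injury model and 3 celecoxib + lactoferrin rats, grouped by their labels. Litters, cages and library batches are not given in the sources used here. The authors sequenced on an Illumina Hiseq x-ten platform, removed low-quality reads and aligned with HISAT2, per the paper's methods to Ensembl Rnor_6.0 (the submitters' processing notes name GRCh38.p13, a human build). They deposited raw counts per Ensembl gene ID. The counting tool is not given in the sources used here.

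From the counts, edgeR 4.0.16 (R 4.3.3) gave the main test across all genes: TMM, filterByExpr by group, robust quasi-likelihood fit, Benjamini-Hochberg adjustment. DESeq2 1.42.0 and limma 3.58.1 (voom) were alternatives, beside other scalings, filters, a replicate block, a term for depth and each rat left out. Log2 CPM used a prior count of 2. Ratios were tested by exact permutation in SciPy 1.17.1. The scripts were tested on simulated data. No pair of libraries was a duplicate (chi-square per degree of freedom at least 90.6). The 2 members, the lists and the alternatives were chosen with earlier results of these data known. The named genes are the pair and the IDs most and least like each in pattern; pathway and marker lists fixed by symbol could not be matched to IDs.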

Additional observations from a re-analysis of the deposited data

How the results depend on the processing

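Ptgs2 was lower in the treated rats in all 14 alternative fits, and its side of the adjusted threshold changed in 1 of them: DESeq2, with a log2 fold change of -3.08. Leaving out each rat gave -3.50 to -2.82. Ptgs1 passed no threshold in any fit (lowest adjusted p-value 0.85, over edgeR, DESeq2 and limma), and its sign turned with library size only (0.0118), with a term for library depth (0.00721) and in 3 of the fits that left out 1 rat, which ran from -0.284 to 0.0947. The difference in the log2 ratio of Ptgs2 to Ptgs1, treated minus injury model, stayed below 0 in all 10 of its alternatives, from -3.50 to -2.63. Its exact permutation p-value was 0.1 with 0.5 added to both counts, the smallest that 3 against 3 allow. By the same test it was 0.2 with group medians and 0.2 with each rat left out. The difference of the edgeR log2 fold changes was given no p-value.

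Over all genes, edgeR called 1 at an adjusted 0.05. The number was 26 with DESeq2, 3 with voom, 3 with low counts left in, 0 with 10 counts required in each library (edgeR, 407 at an unadjusted p under 0.05) and 0 with the replicate block (edgeR, 326 at an unadjusted p under 0.05). It ran from 1 to 9 with 1 rat left out. Genes with an unadjusted p under 0.05 numbered 395 in edgeR, 495 with voom and 578 of 18064 with DESeq2, the tool of the study's methods. In edgeR they numbered 223 with the depth term. With 1 rat left out they ran from 226, when injury model replicate 1 was absent, to 890, when celecoxib + lactoferrin replicate 3 was absent. The cause was not tested.

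With the replicate number as a block, Ptgs2 had a log2 fold change of -3.09 (adjusted p = 0.995, edgeR), Ptgs1 had -0.07, and the ratio had -3.01 (exact sign-flip p = 0.25, the smallest possible). After each group's mean was taken off, correlations over genes between rats of different groups were compared. They ran from -0.27 to 0.06 for rats that share a number, and from -0.31 to 0.30 for those that do not. By this measure rats that share a number were no more alike. With 3 rats a group, it cannot settle whether the numbers stand for a pairing or a batch. With 3 rats a group, a Ptgs1 difference inside its 95% interval is not excluded.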
